A study of Homo sapiens with 6 samples.

Results

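The 10 genes described here encode BCL2 family regulators of mitochondrial apoptosis, measured in LNCaP cells after 24 h with urolithin A at 40 µM and in control cells. They were taken by gene symbol: the BH3-only genes BBC3, BID, PMAIP1, BCL2L11 and BMF, the pore formers BAX and BAK1, and the guardians BCL2, BCL2L1 and MCL1. They make up 10 of 18239 genes measured by probe sets with a single gene symbol, and 48 of 49386 probe sets on the array. A probe set is a group of short oligonucleotides that read 1 stretch of a transcript, and a gene here has between 2 and 14 of them. LNCaP is an established line from a human prostate adenocarcinoma that responds to androgen, and urolithin A is a product that gut bacteria form from dietary ellagitannins. The study has 6 Affymetrix Human Genome U219 arrays of RNA from bulk cultures in F12 medium with fetal bovine serum, 3 from cells with urolithin A and 3 from control cells. Control cells are untreated by their titles, whereas saline stands in the treatment protocol, and no solvent for urolithin A is given. Nothing in the labels ties the arrays of a group to separate cultures, so p-values here measure the spread between arrays, which may be technical.

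BCL2 family proteins decide whether the outer mitochondrial membrane stays intact. BAX and BAK1 form pores that let cytochrome c out and start the caspase cascade; BCL2, BCL2L1 (BCL-XL) and MCL1 hold them and their activators in check. BH3-only proteins carry stress signals into this balance, by binding the guardians and, for some, by activating BAX and BAK1 directly. BBC3 (PUMA), PMAIP1 (NOXA), BAX and BID are known transcriptional targets of p53, BCL2L11 (BIM) is a known target of FOXO factors, and the MCL1 protein is short-lived.

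Promoter windows from RefSeq on GRCh38.p14, which run from 250 bases before to 50 bases after a transcription start, were matched by symbol for 9 of the 10 genes, all except MCL1. The windows of the 3 genes that rose after urolithin A are shown because each holds the palindromic E box CACGTG, in capitals, which MYC, USF and MiT/TFE factors are known to bind. The BBC3 window lies at chr19:47232618-47232917 on the minus strand, the BID window at chr22:17773934-17774233 on the minus strand and the BAX window at chr19:48954625-48954924 on the plus strand, each written 5′ to 3′.
BBC3: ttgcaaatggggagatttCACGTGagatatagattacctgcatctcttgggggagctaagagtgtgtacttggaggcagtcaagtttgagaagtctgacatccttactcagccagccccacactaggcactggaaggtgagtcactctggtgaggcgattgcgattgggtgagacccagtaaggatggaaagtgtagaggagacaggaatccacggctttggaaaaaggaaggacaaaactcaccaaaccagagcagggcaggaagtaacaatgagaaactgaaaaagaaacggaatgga
BID: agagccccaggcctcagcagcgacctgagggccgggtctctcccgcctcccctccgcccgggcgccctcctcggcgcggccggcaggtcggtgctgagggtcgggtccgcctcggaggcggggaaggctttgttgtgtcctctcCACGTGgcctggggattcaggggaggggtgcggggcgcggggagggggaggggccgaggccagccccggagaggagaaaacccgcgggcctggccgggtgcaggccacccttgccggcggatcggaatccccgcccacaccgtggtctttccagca
BAX: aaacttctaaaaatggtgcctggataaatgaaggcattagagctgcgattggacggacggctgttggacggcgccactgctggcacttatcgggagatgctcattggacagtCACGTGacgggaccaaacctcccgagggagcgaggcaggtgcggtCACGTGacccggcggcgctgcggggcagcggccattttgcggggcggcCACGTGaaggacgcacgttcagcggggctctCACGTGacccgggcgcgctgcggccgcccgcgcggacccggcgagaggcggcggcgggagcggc
BAX has 4 copies and BBC3 has 1 copy. BID has 1 copy in 2 of its 5 start windows, of which 1 is shown.

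The E box was found in 7.26% of 35116 promoter windows and in a window of 8.78% of 27305 genes, and 4 or more copies in 5 windows, 0.0142% of them. The other 6 genes with a window, PMAIP1 among them, did not hold it. This motif was 1 of 7 searched on both strands, chosen with the expression results known, so its presence describes these windows and gives no test. The decamer of the p53 response element occurred in BAK1 among these genes and in 8.06% of all genes with a window. The GC box GGGCGG was in windows of 7 of the 9 genes and of 48.3% of all genes, and CCAAT in 5 of the 9 and in 39.7%. The FOXO motif TGTTTAC was found in BCL2L11 alone of the 9, against 4.19% of all genes. The cAMP response core TGACG was in 5 of the 9 and in 28.4%, and its BAX copy overlaps the first E box of that window. TATAAA was found in BCL2L1 alone of the 9, against 13.99% of all genes. A missing match says only that these letters are absent from the window.

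Every deposited value is a log2 value from which the median of the 3 control arrays was subtracted, which leaves differences between arrays but no level of any transcript. The labelled cell type could therefore not be checked against the level of its markers. Of 7 measured prostate epithelial markers, 3 fell (KLK2, KLK3 and TMPRSS2) and FOLH1 rose. None of the measured fibroblast (6), endothelial (4), blood cell (6) or basal epithelial (3) markers passed the test at gene level. The blood cell markers had a median of 0.02, 0.18 and 0.17 in urolithin A replicates 1, 2 and 3, against 0.04, -0.01 and 0.00 in control replicates 1, 2 and 3. They differed among themselves in urolithin A replicates 2 and 3. PTPRC was at 0.41 and 0.40 there, MS4A1 at 0.72 and 0.36 and LYZ at 0.04 and 0.21. In the same 2 arrays CD3E was at 0.09 and -0.05, CD14 at 0.28 and -0.18 and CD68 at -0.10 and 0.12. The basal markers had a median of -0.31, -0.35 and -0.15 in the urolithin A arrays, below the 0.00, -0.02 and 0.07 of the control arrays. HLA-DRA stood 1.17 and 3.09 above the control median in urolithin A replicates 2 and 3 and 1.01 in control replicate 1, and lay between -0.02 and 0.03 in the other 3 arrays. Probe sets for 18S ribosomal RNA were low in urolithin A replicate 3 (-0.48) and control replicate 3 (-0.45) and lower than in the other arrays in urolithin A replicate 2 (-0.22), against 0.01 to 0.05 in the other 3. The part of these signals in the results below was not tested beyond fits without the raised HLA-DRA arrays and without both arrays lowest in 18S.

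After urolithin A, BBC3, BAX and BID rose and none of the 10 genes fell at an adjusted p under 0.05 (limma). In the same fit 4.85% of all 18239 genes were called higher, 5.31% lower and 10.2% in either direction. All 3 genes that rose are among the 7 pro-apoptotic ones, and 0 of the 3 guardians passed. The median log2 change was 0.13 over the 7 pro-apoptotic genes and 0.01 over the 3 guardians, beside 0.01 over all genes tested. Over single probe sets the medians were -0.0049 for the 33 pro-apoptotic and 0.03 for the 15 guardian probe sets. The gene medians thus do not carry over to that level, where genes with many probe sets weigh more. Of the 33, 14 belong to BCL2L11, and 11 of these 14 had changes below 0. In 5 of the 10 genes the 3 urolithin A arrays lay entirely outside the range of the 3 control arrays. BBC3, BAX and BID were higher and PMAIP1 and BCL2L11 were lower, against 29.3% of all genes in either direction, 15.6% higher and 13.7% lower. In bulk RNA, a change in the share of cells that hold a transcript cannot be told apart from a change in its amount per cell.

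**Figure D1:**
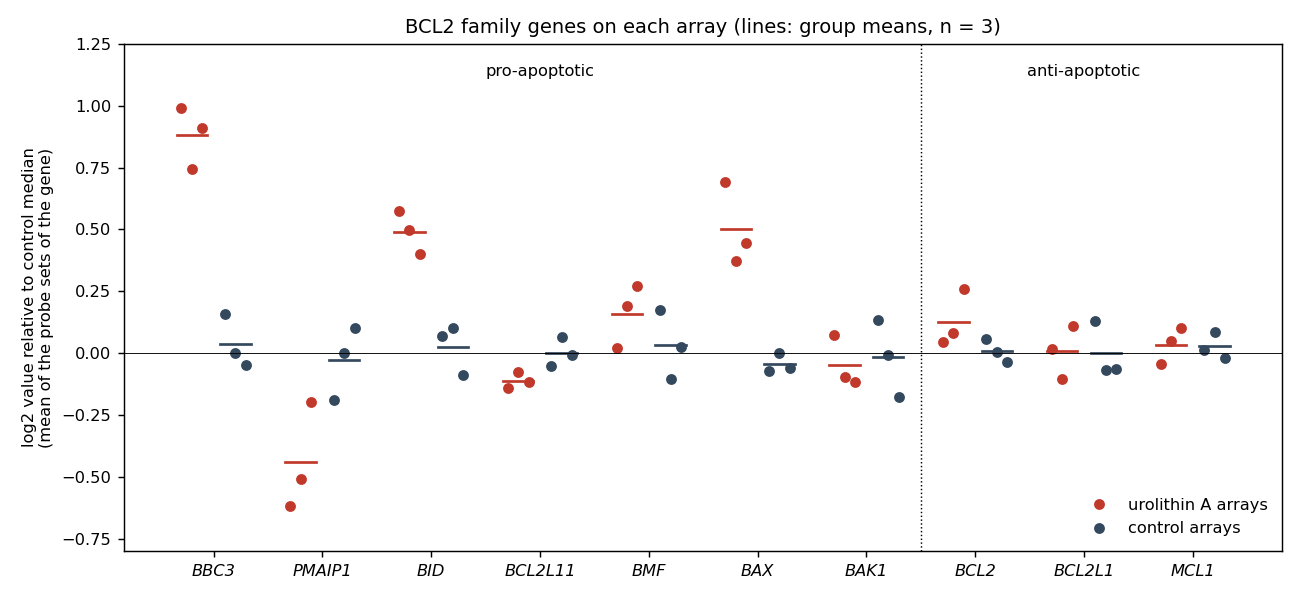
Gene-level log2 value relative to the control median for each of the 10 genes, 1 point per array, with the 3 urolithin A arrays left of the 3 control arrays and short lines at the group means. The urolithin A points of BBC3, BAX and BID lie above all control points, those of PMAIP1 and BCL2L11 lie below them, and the groups overlap in the other 5 genes.

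BBC3, a BH3-only protein that binds all the guardians, had the largest change of the 10. Its gene-level value was 0.99, 0.74 and 0.91 in urolithin A replicates 1, 2 and 3, against 0.16, 0.00 and -0.05 in control replicates 1, 2 and 3. The lowest urolithin A array stood far above the highest control array. The change was 0.84 on the log2 scale (SE 0.09, 95% interval 0.64 to 1.05), 1.80-fold, with an adjusted p of 0.00106, and it ranked 60 from the top of 18239 genes. Both BBC3 probe sets were higher in every urolithin A array than in any control array. Probe set 11727707_a_at read 1.00, 0.81 and 1.15 with urolithin A and -0.20, 0.00 and 0.08 in controls, a change of 1.02 (adjusted p = 0.00168). Probe set 11727706_a_at changed by 0.67 (adjusted p = 0.0525), with control replicate 1 at 0.52 and the other control arrays at 0.00 and -0.18.

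BID links death receptors to mitochondria, since caspase-8 cuts it to an active form. Averaged over probe sets, it read 0.57, 0.50 and 0.40 in the urolithin A arrays, against 0.07, 0.10 and -0.09 in the control arrays. The groups did not overlap, and the spread within each was small beside the gap between them. BID rose by 0.46 (SE 0.08, 95% interval 0.28 to 0.65), 1.38-fold, with an adjusted p of 0.00903. All 4 of its probe sets were higher without overlap, by 0.33 to 0.59. Of these, 11732218_x_at (0.52, adjusted p = 0.00691) and 11732217_a_at (0.42, adjusted p = 0.0422) passed alone, and the second of these calls was kept only without control replicate 1 when single arrays were left out.

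PMAIP1, a BH3-only protein that binds MCL1 in particular, lay on the other side of the controls. Its gene-level value was -0.62, -0.51 and -0.20 in the urolithin A arrays, against -0.19, 0.00 and 0.10 in the control arrays. The groups were separated by a narrow gap, since urolithin A replicate 3 (-0.199) and control replicate 1 (-0.191) nearly met. The change of -0.41 (SE 0.12, 95% interval -0.69 to -0.14) did not pass (adjusted p = 0.0672). Without urolithin A replicate 3 it was -0.53 and passed (adjusted p = 0.023). Its 2 probe sets gave like changes, -0.43 and -0.40. PMAIP1 and BBC3, both known p53 targets of the BH3-only class, thus had changes of opposite sign here. Their unadjusted 95% intervals do not overlap, and the difference between these genes was not tested.

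BCL2L11, an activator that binds every guardian and is made in several splice forms, was read by 14 probe sets. The mean over them was -0.14, -0.08 and -0.12 in the urolithin A arrays, against -0.05, 0.06 and -0.01 in the control arrays. The gap between the groups was very narrow, and the mean change of -0.11 (95% interval -0.26 to 0.04) did not pass (adjusted p = 0.347). Behind this mean, 11 probe sets had changes below 0 and 3 above it. Probe set 11745162_s_at read -0.61, -0.79 and -0.68 with urolithin A and -0.35, 0.00 and 0.02 in controls, and was the 1 of 14 that fell (-0.59, adjusted p = 0.0184). That call was lost without urolithin A replicate 2 or 3 or control replicate 2 or 3 (adjusted p = 0.0505 to 0.0697).

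BMF, a BH3-only protein held on the cytoskeleton by dynein light chain 2 until it is freed, had overlapping groups. Its gene-level value was 0.02, 0.19 and 0.27 in the urolithin A arrays, against 0.17, -0.11 and 0.03 in the control arrays. The change of 0.13 (95% interval -0.09 to 0.35) missed the threshold (adjusted p = 0.48). Of its 4 probe sets, 11737440_a_at rose by 0.50 (adjusted p = 0.0206), a call that held only without control replicate 1 when single arrays were left out (adjusted p otherwise 0.0508 to 0.0751). The other 3 BMF probe sets changed by -0.06 to 0.07.

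BAX, the cytosolic pore former that moves to mitochondria when activated, rose by 0.55 (SE 0.09, 95% interval 0.34 to 0.75), 1.46-fold, with an adjusted p of 0.0076. Per array it read 0.69, 0.37 and 0.45 in the urolithin A arrays, against -0.07, 0.00 and -0.06 in the control arrays. The control arrays lay close together, and urolithin A replicate 1 was the highest. Probe set 11742537_a_at rose by 0.61 (adjusted p = 0.00784), while 11759444_x_at changed by 0.49 with no overlap between groups (adjusted p = 0.0731). Within arrays, BBC3 minus BAX was 0.30, 0.37 and 0.47 with urolithin A, against 0.23, 0.00 and 0.01 in controls, and BBC3 minus BID was 0.42, 0.24 and 0.51, against 0.09, -0.10 and 0.04. Neither pair of groups overlapped, while BAX minus BID overlapped between groups (0.12, -0.13 and 0.05 with urolithin A, against -0.14, -0.10 and 0.03 in controls). These differences between genes were given no test.

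BAK1, the pore former resident in the mitochondrial membrane, showed no such shift. Its gene-level value was 0.07, -0.10 and -0.12 in the urolithin A arrays, against 0.13, -0.01 and -0.18 in the control arrays. The groups covered nearly the same range, and the change was -0.03 (95% interval -0.25 to 0.18, adjusted p = 0.893). Its 5 probe sets changed by -0.45 to 0.18 and none passed. The lowest, 11748849_a_at, had an adjusted p of 0.128. The unadjusted 95% intervals of BAX and BAK1 do not overlap, and the difference between these genes was not tested.

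Of the guardians, BCL2, the founding member and a protein of the mitochondrial and endoplasmic reticulum membranes, had gene-level values of 0.04, 0.08 and 0.26 with urolithin A, against 0.06, 0.00 and -0.04 in controls. Only urolithin A replicate 3 stood apart, and the change of 0.12 did not pass (95% interval -0.06 to 0.29, adjusted p = 0.4). BCL2L1, whose splicing gives a long protective and a short death-promoting form, had values of 0.02, -0.10 and 0.11 with urolithin A, against 0.13, -0.07 and -0.06 in controls. Its change was 0.01 (95% interval -0.18 to 0.20, adjusted p = 0.967), and its 3 probe sets changed by -0.11 to 0.11. MCL1 had values of -0.04, 0.05 and 0.10 with urolithin A, against 0.01, 0.09 and -0.02 in controls. Its change was 0.01 (95% interval -0.15 to 0.17, adjusted p = 0.966). In all 3 guardians the groups overlapped. The upper bounds of their intervals (0.29, 0.20 and 0.17) lie below the lower bounds of BBC3 (0.64) and BAX (0.34). The interval of BID overlaps that of BCL2, with a BID lower bound of 0.2836 and a BCL2 upper bound of 0.2947. These intervals are unadjusted, and differences between the genes were not tested.

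Taken one by one, 8 of the 48 probe sets passed, 6 higher and 2 lower, which is 16.7% beside 8.41% of all 49293 probe sets tested (4.01% higher, 4.4% lower). Groups did not overlap in 19 of the 48 (39.6%, 14 higher and 5 lower), beside 27.9% of all. Of the 8, 4 belong to BBC3, BAX and BID. The others are single probe sets of BCL2, BMF, BCL2L11 and MCL1, genes whose means did not pass. With 1 array left out, 4 passed without control replicate 3, 5 without urolithin A replicate 2 or 3, 6 without urolithin A replicate 1 or control replicate 2, and 8 without control replicate 1.

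**Figure D2:**
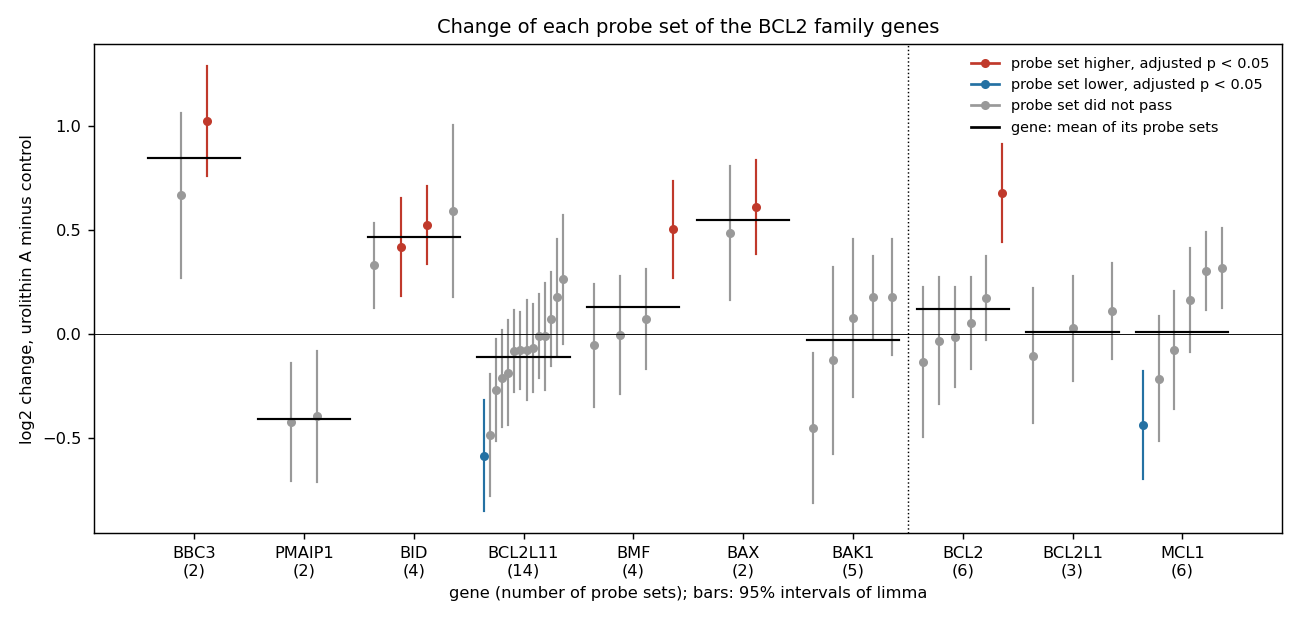
Log2 change, urolithin A minus control, of each of the 48 probe sets by gene, with 95% intervals and colour for those that passed at an adjusted p under 0.05. All probe sets of BBC3, BID and BAX lie above 0 and both of PMAIP1 below it, while those of MCL1, BCL2, BAK1, BMF and BCL2L11 lie on both sides.

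Whether the probe sets of a gene changed unequally was tested for all 11822 genes with at least 2 of them, with limma's F-test for differing changes. MCL1 (adjusted p = 0.00454), BCL2 (0.0194) and BCL2L11 (0.00176) passed, 3 of the 10 genes against 9.59% of all genes tested. The share called grows with the number of probe sets, to 18.75% of 496 genes with 6, as MCL1 and BCL2 have, and 2 of 7 genes with 14 or more. The 2 probe sets of BBC3 did not differ by this test (adjusted p = 0.432), nor did those of BID (0.822), BAX (0.81) or PMAIP1 (0.977). These p-values do not show that their changes are equal.

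The mean of MCL1, near 0, combines probe sets that lie on both sides of it. Probe set 11715484_a_at read -0.25, -0.55 and -0.35 with urolithin A and 0.00, 0.22 and -0.06 in controls, a fall of 0.44 (adjusted p = 0.0493). Probe set 11715482_a_at read 0.38, 0.24 and 0.30 with urolithin A and 0.05, 0.00 and -0.07 in controls, a change of 0.31 (adjusted p = 0.0554, not passed). The groups were apart in both, in opposite directions, and 11715483_s_at lay with the second (0.30, adjusted p = 0.0583). Against the other probe sets of its gene, 11715484_a_at differed at an adjusted p of 0.00788, a test that 4.97% of 38836 probe sets passed. Its own fall was lost in every fit without 1 array (adjusted p = 0.0638 to 0.15), and the difference among MCL1 probe sets was lost without control replicate 2 (adjusted p = 0.0615). MCL1 is known to be made in a long protective and a short death-promoting splice form, and which of them each probe set reads was not examined here.

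For BCL2 the difference rests on 1 probe set. Probe set 11721377_x_at read 0.64, 0.69 and 0.81 with urolithin A and 0.00, 0.20 and -0.09 in controls, and rose by 0.68 (adjusted p = 0.0059), a call kept whichever single array was left out. The other 5 BCL2 probe sets changed by -0.14 to 0.17 and none passed. The suffix _x_at marks probes that may also match other transcripts. Without the _x_at and _s_at probe sets, those of BCL2 no longer differed by the test (adjusted p = 0.829). The call was also lost without urolithin A replicate 1 or 2 or control replicate 1 or 3 (adjusted p up to 0.158). In BCL2L11 the probe sets farthest below the rest, 11745162_s_at and 11753863_s_at (-0.49, adjusted p = 0.0529), carry the suffix _s_at, given where all probes match several transcripts. Probe set 11735895_at, which has neither suffix, lay 0.40 above the rest of BCL2L11 (adjusted p = 0.0255 in the test against the other probe sets). Without both the _x_at and the _s_at probe sets the BCL2L11 difference had an adjusted p of 0.189. Without urolithin A replicate 2 it had 0.0624 and without control replicate 3 it had 0.0526.

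**Figure D3:**
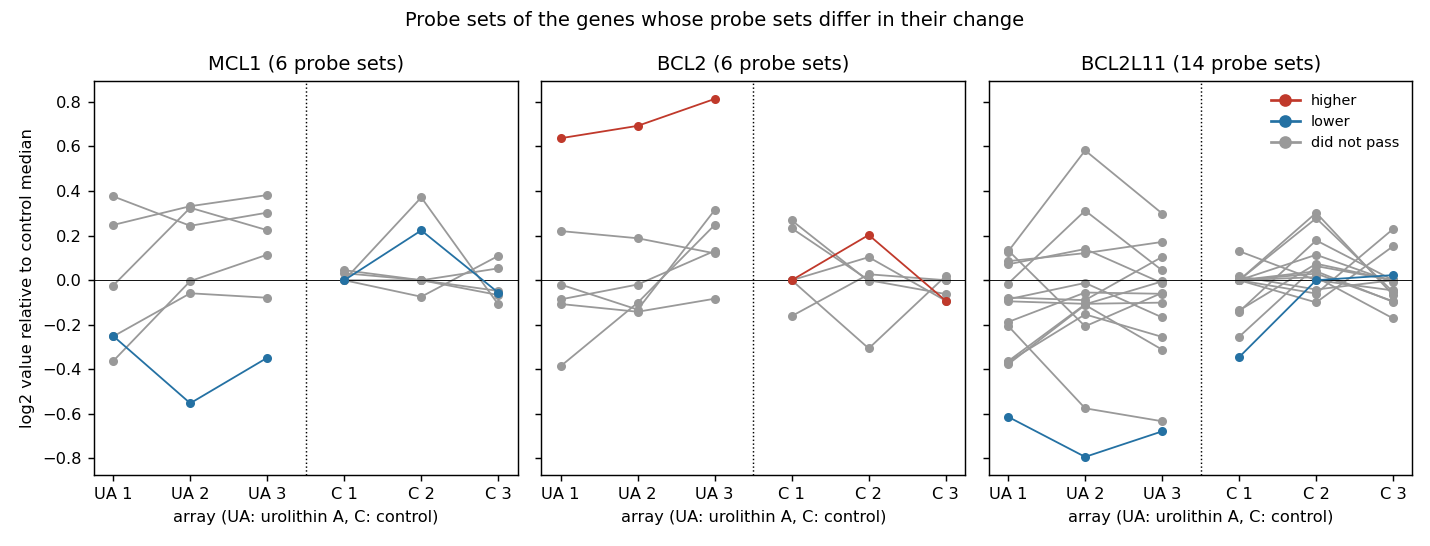
Log2 value relative to the control median for every probe set of MCL1, BCL2 and BCL2L11, with urolithin A arrays left of control arrays; lines join the arrays of 1 probe set to identify it, and replicates have no order. In MCL1 probe set 11715484_a_at lies below and 11715482_a_at above the controls, and in BCL2 11721377_x_at stands above the other 5 in the urolithin A arrays.

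Within an array, genes of both sides can be set against each other as differences from their own control medians. The mean over the 7 pro-apoptotic genes was 0.23, 0.16 and 0.23 in urolithin A replicates 1, 2 and 3, against 0.03, 0.01 and -0.04 in control replicates 1, 2 and 3. The mean over the 3 guardians was 0.01, 0.01 and 0.16 in the urolithin A arrays, against 0.07, 0.01 and -0.04 in the control arrays. The first mean separated the groups and the second did not.

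Pro-apoptotic minus guardian mean was 0.22, 0.15 and 0.07 in the urolithin A arrays, against -0.03, 0.00 and 0.00 in the control arrays, a difference of 0.159 with no overlap. BAX minus BCL2 was 0.65, 0.29 and 0.19 with urolithin A, against -0.13, -0.0037 and -0.02 in controls. BBC3 minus MCL1 was 1.04, 0.70 and 0.81 with urolithin A, against 0.15, -0.09 and -0.03 in controls. BAX minus BCL2L1 was likewise higher in every urolithin A array, by 0.54 on average. Urolithin A replicate 3, the array with the highest BCL2 and guardian mean, had the smallest difference between the sides and the smallest for BAX against BCL2 and BCL2L1. These differences follow from the changes above and were given no test, and the values of BCL2 and MCL1 in them average probe sets that differ.

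**Figure D4:**
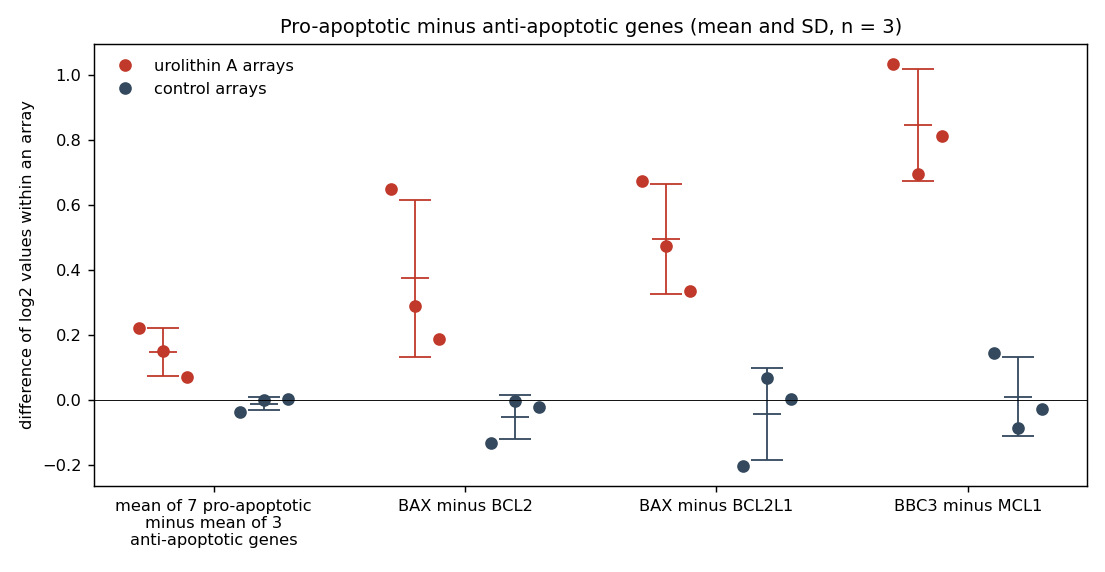
Within-array differences of log2 values relative to the control median (mean of 7 pro-apoptotic minus mean of 3 anti-apoptotic genes, BAX minus BCL2, BAX minus BCL2L1, BBC3 minus MCL1), 1 point per array, urolithin A left of control. In each of the 4 measures all urolithin A points lie above all control points, with group means for the sides of 0.148 and -0.0102.

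Other genes of the same pathway were followed in 5 lists chosen for what they do, with entries that had no probe set not analysed here. None of the 11 other BCL2 family genes passed, beside 10.2% of all genes. Their changes had a median of 0.04 and a range of -0.17 to 0.25. The highest was BAD (0.25, adjusted p = 0.0987), a BH3-only protein held inactive by phosphorylation, chosen for mention after its value was seen. BCL2L13, a mitochondrial family member also chosen after its values were seen, had a mean change of -0.11 over 7 probe sets, of which 1 rose and 2 fell. Its probe sets differed at an adjusted p of 4.28e-10, smaller than for MCL1, BCL2 or BCL2L11. Downstream of the pore, 0 of 14 measured genes of cytochrome c, the apoptosome, caspases and their inhibitors passed (limma), beside 10.2% of all genes. Their median change was 0.02. Among the 14, the inhibitor BIRC5 (survivin) had no overlap between groups (-0.26, adjusted p = 0.0981) and 1 of its 12 probe sets fell. BIRC5 is named after its value was seen.

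Of 10 measured genes for inducers of BH3-only and BAX transcription, 1 passed, beside 10.2% of all genes, and 9 did not, with a median of 0.01. It was E2F1, which fell by 0.41 (adjusted p = 0.0278), a call lost without urolithin A replicate 1 or 3 or control replicate 1 or 2 (adjusted p up to 0.0928). Of 23 measured genes for the turnover and handling of BCL2 family proteins, 2 rose and 3 fell, with a median of -0.01. Among all genes 4.85% were called higher and 5.31% lower. DYNLL2, the dynein light chain that holds BMF, fell by 0.71 (adjusted p = 0.00915), and 1 of its 2 probe sets passed alone. BAG1, a co-chaperone named for binding BCL2, fell by 0.45 (adjusted p = 0.00529), and 3 of its 4 probe sets passed alone. USP9X, a deubiquitinase known to stabilise MCL1 protein, rose by 0.40 (adjusted p = 0.0132, and 0.0503 without control replicate 1). Its probe sets differed in their change (F-test, adjusted p = 5.9e-05), and 2 of 5 passed alone. USP13, another deubiquitinase reported to act on MCL1, fell by 0.31 (adjusted p = 0.0462), and among fits without 1 array only the one without control replicate 3 kept that call. The USP13 probe sets differed as well (F-test, adjusted p = 0.00242), and 2 of 3 passed alone. BNIP3L, a mitophagy receptor of the outer membrane that binds BCL2, rose by 0.35 (adjusted p = 0.0111). Of its 6 probe sets, 3 passed alone.

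Other known apoptotic targets of p53 were set beside BBC3, BAX and BID. Of 17 measured, 5 rose and 0 fell, and the other 12 missed the threshold, beside 4.85% of all genes called higher and 5.31% lower. The median change was 0.11. TP53I3, an oxidoreductase induced by p53, rose by 2.07 (adjusted p = 0.00046), more than any of the BCL2 family genes. TP53INP1 rose by 0.74 (adjusted p = 0.00281), ZMAT3 by 0.56 (adjusted p = 0.00275), the decoy receptor gene TNFRSF10D by 0.49 (adjusted p = 0.00877) and PHLDA3, an inhibitor of AKT, by 0.51 (adjusted p = 0.0296). The PHLDA3 call was kept when control replicate 1 was left out and lost when any other array was. Without _x_at and _s_at probe sets ZMAT3 changed by 0.29 and did not pass (adjusted p = 0.0788). TP53I3 was read by 1 probe set. The 2 probe sets of TNFRSF10D differed in their change, as did the 2 of ZMAT3 (F-test, adjusted p = 0.01005 and 0.0171). For each of these genes 1 of the 2 passed alone. BBC3, BAX and BID kept their calls whichever single array was left out, with changes of 0.79 to 0.91, 0.45 to 0.61 and 0.41 to 0.51. Without the 3 arrays with raised HLA-DRA, urolithin A replicate 1 and control replicates 2 and 3 remained. The changes of BBC3 (1.01), BAX (0.72) and BID (0.57) then rest on 1 urolithin A array, the highest of the 3 for each of these genes. Such a fit cannot judge whether the calls hold.

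**Figure D5:**
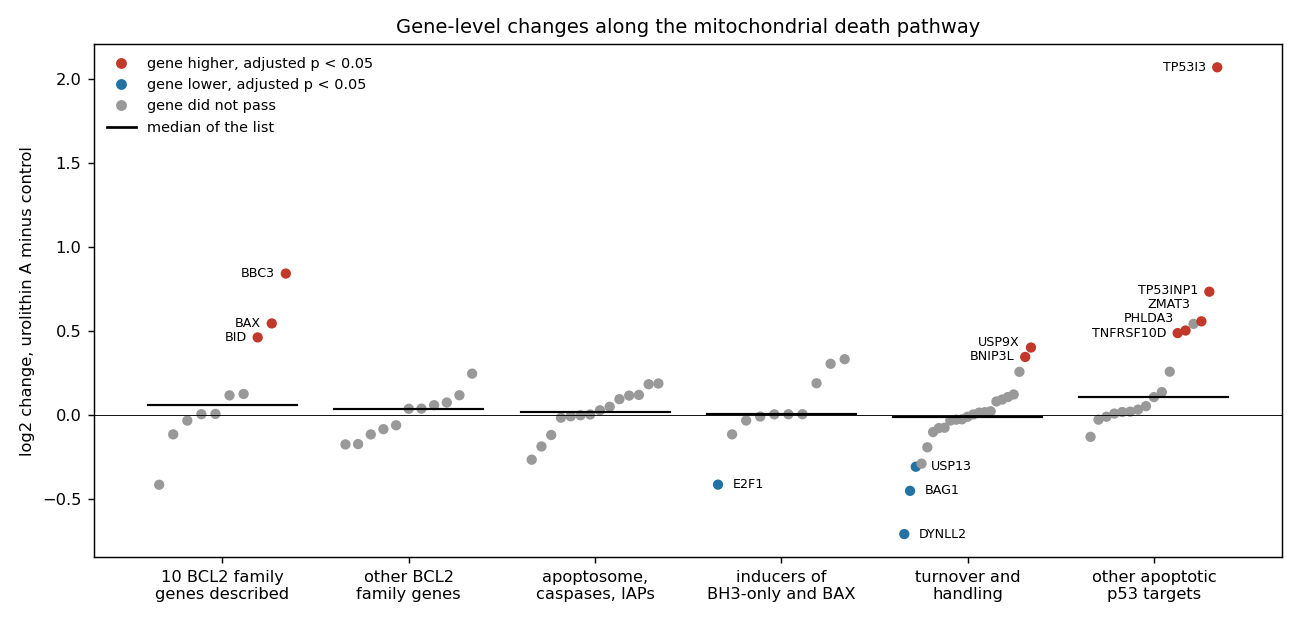
Gene-level log2 change, urolithin A minus control, for the 10 genes described and for the 5 lists of surrounding genes, 1 point per gene, with a bar at each list's median and names for genes that passed. List medians lie between -0.01 and 0.11, and the genes named above 0 include BBC3, BAX and BID and, far above the others, TP53I3 at 2.07.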

How the data were processed

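RNA was measured on 6 arrays, 3 of cells with urolithin A and 3 of control cells, grouped by sample title. The authors deposited log2 values from RMA (background correction, quantile normalization and probe-set summary). RMA is named, without a version, in the submitters' processing notes. The control median equals 0 for each of the 49386 probe sets, so the values had been centred on it. Base 2 is assumed for the logarithm, as RMA uses it. Background signal and detection calls were not used here, and the number of arrays limits the precision.

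Probe sets with a single gene symbol in the platform annotation (45253) were averaged per gene and array. Genes, single probe sets other than array controls, and differences between probe sets of a gene (diffSplice) were fitted with limma 3.58.1 in R 4.3.3, with 1 term for treatment, moderated two-sided tests, Benjamini-Hochberg adjustment over all features of each fit and a threshold of 0.05. Intervals are 95% and unadjusted. The 10 genes, the 5 lists, the marker lists and the motifs were chosen with earlier results of these data known. All 10 genes are named, with those genes of each list that passed, up to 5 on each side. Alternatives were a replicate block, the median over probe sets, no _x_at or _s_at probe sets, median centring, array weights, a trended robust prior, ordinary variances without moderation, each array left out and a threshold of 0.01.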

Additional observations from a re-analysis of the deposited data

How the results depend on the processing

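The calls of BBC3, BAX and BID were kept with the replicate block, the median over probe sets, no _x_at or _s_at probe sets, median centring, a trended robust prior, array weights, a threshold of 0.01 and each array left out. Without moderation 1 of the 3 (BBC3) passed. Both of the following fits were chosen after seeing the data. Without the 3 arrays with raised HLA-DRA, only urolithin A replicate 1 and control replicates 2 and 3 are left. The calls of BBC3, BAX and BID were not kept in that fit, but with 1 treated array it cannot judge them. For these genes only its changes are given. The counts of calls listed below for that fit have the same limit, and no conclusion is drawn from them. Without the 2 arrays lowest in 18S ribosomal RNA the 3 calls were kept. The part of these signals in the results was not otherwise tested.

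Same-numbered arrays did not deviate together in all pairs (correlations 0.078, 0.023 and 0.196). Urolithin A replicate 3 correlated best with its own number, and so did replicate 1, narrowly (0.073 with control replicate 2). Urolithin A replicate 2 correlated best with control replicate 1. The numbers were therefore not read as pairs, though a pairing cannot be told from these values. With the replicate block 1 of the 10 genes fell, PMAIP1 (adjusted p = 0.0189), and BCL2 probe sets no longer differed (adjusted p = 0.0664); over all genes 1863 were called. Leaving out 1 array gave 0 to 1 of the 10 lower.

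Over all genes 1854 were called: 560 without moderation, 1063 to 1309 with 1 array left out, 48 without the HLA-DRA arrays, 841 without the 18S arrays and 642 at a threshold of 0.01. Over all probe sets 4144 were called: 2557 with the trended prior, 828 without moderation, 2229 to 2695 with 1 array left out, 82 and 1596 without the HLA-DRA and the 18S arrays, and 1481 at 0.01. Of the 48 probe sets 8 were called: 5, 1, 4 to 8, 0, 2 and 4 under these same settings in the same order. Genes with differing probe sets numbered 1134: 733 without _x_at and _s_at probe sets, 696 to 838 with 1 array left out, 50 and 518 without the HLA-DRA and the 18S arrays, and 589 at 0.01. Of the 10 genes 3 were in this count: 1, 1 to 3, 0 and 1 in the first 4 of these settings. The difference between the pro-apoptotic and guardian means, 0.159, was 0.236 without _x_at and _s_at probe sets.

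Changes near 0 crossed it without passing. BAK1 was -0.11 to 0.0449 with 1 array left out and 0.164 without the HLA-DRA arrays. BCL2L1 was -0.041 to 0.0742 with 1 array left out, -0.000991 with array weights and -0.0715 without the 18S arrays. MCL1 was -0.0249 to 0.047 with 1 array left out, -0.105 without _x_at and _s_at probe sets, -0.0778 without the HLA-DRA arrays and -0.048 without the 18S arrays. Of the 29 probe sets with an unadjusted p of 0.05 or more, 16 changed sign under some of 14 settings, and none passed.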
